A study of Mus musculus with 15 samples.

Results

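The axon guidance ligands and receptors described here are 66 mouse genes of the semaphorin, ephrin, Slit and netrin ligand families and of the plexin, neuropilin, Eph, Robo and Unc5/Dcc receptor families. They were chosen by gene symbol from 39179 gene identifiers, which gave 68 genes, and were kept where at least 3 of the 15 libraries held at least 10 counts. The rule used no difference between groups. It kept 33 ligands (19 semaphorins, 8 ephrins, 3 Slits and 3 netrins) and 33 receptors (14 Eph receptors, 9 plexins, 2 neuropilins, 3 Robos and 5 genes of the Unc5 and Dcc group). Robo3, a Slit receptor relative, was left out with 67 counts in all and at most 8 in a library. Sema3a, the best known growth cone repellent of the family, was left out with 47 counts and at most 6. Just inside the threshold were Efna4 with 3 libraries of at least 10 counts, Epha1 with 4 and Dcc with 7. All 66 passed the low-count filter of the statistical model.

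RNA was sequenced from whole dorsal root ganglia (DRG, the clusters of sensory neuron cell bodies beside the spinal cord) of lumbar levels 4 to 6, from mice aged 3 to 6 months on a mixed background labelled as mostly C57bl6. Knockout animals were Wnt1-Cre; mirflox/flox, in which Cre under the Wnt1 promoter recombines a floxed microRNA-183 cluster in the neural crest lineage that forms DRG neurons and glia, while cells of other origin keep the cluster. Controls carried Wnt1-Cre without the floxed allele or were wild type (wt), and the 2 kinds of control were taken as 1 group. Spared nerve injury (SNI) ties and cuts the common peroneal and tibial branches of the sciatic nerve and leaves the sural branch intact, so that a lumbar ganglion holds injured and uninjured neurons side by side. The groups were knockout SNI (libraries 13, 19 and 21), control SNI (Wnt1-Cre library 15, wt libraries 18 and 23), knockout naive (4, 5, 8 and 9) and control naive (Wnt1-Cre libraries 1, 2, 3 and 6, wt library 7). Each library has an animal number of its own. How long after the injury tissue was taken is not given in the sources used here.

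In development, growth cones read these cues at a distance or on contact. Semaphorins act through plexins, with neuropilins as the binding partner for most secreted class 3 members, and mainly repel or stall growth. Ephrins are membrane-bound and signal through Eph receptor tyrosine kinases, in many pairs in both directions across the contact. Slits repel through Robo receptors, and netrins attract through Dcc and repel through Unc5 receptors. In adult sensory ganglia and nerve the same proteins are known for roles in sprouting, in axon regrowth and in contacts with glia and vessels.

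The microRNA-183 cluster makes 3 small RNAs from chromosome 6, whose bases 2 to 8 (the seed, in capitals) pair with messenger RNAs. Their sequences are shown because the floxed allele is meant to remove them.
miR-183-5p: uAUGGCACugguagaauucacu
miR-96-5p: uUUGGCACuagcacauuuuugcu
miR-182-5p: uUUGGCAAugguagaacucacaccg

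An 8-base match to such a seed (the complement of bases 2 to 8 followed by A) lay in the longest annotated 3′ UTR of 11 of the 66 genes, or 16.7%, against 9.33% of the 14451 tested genes with an annotated 3′ UTR. The guidance genes had longer 3′ UTRs, with a median of 1617.5 bases against 1194 bases. A match to miR-183 was found in Epha4, Ephb1, Ephb4, Robo2 and Sema3e, to miR-96 in Epha3, Epha5, Ephb2 and Ntn4, and to miR-182 in Dcc and Efnb2. The windows below belong to genes whose values are given further on, with the match in capitals. Robo2 (chr16:73891839-74411825, GRCm38, minus strand) and Sema3e (chr5:14025276-14256689, plus strand) hold the miR-183 match, and Epha3 (chr16:63543534-63864175, minus strand) and Ephb2 (chr4:136647539-136835988, minus strand) the miR-96 match.
Robo2: attaatgggctgtgGTGCCATAtatt
Sema3e: cagtctgtaagcatGTGCCATAttgc
Epha3: tttgttacagccaaGTGCCAAAtgct
Ephb2: ttaccctatgccaaGTGCCAAAatct
The match begins at base 390 of the Robo2 3′ UTR, at base 3701 of that of Sema3e, at base 693 of that of Epha3 and at base 5459 of that of Ephb2. A match describes the letters of the window and does not show that the site is used.

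The shallowest library, control SNI 23, held 5252920 counts and the deepest 10822762 counts, and a count of 0 would allow between 0.273 and 0.647 CPM (counts-per-million units), which covers counting error only. Control SNI 23 had 7.43% of its counts on mitochondrial genes, while the other libraries had between 2.26% and 3.60%. The deletion could not be checked: the precursors Mir183, Mir96 and Mir182 held 0 counts in the 7 knockout libraries and 0, 1 and 2 counts in the 8 control libraries, so these libraries hold hardly any reads of these precursors. Atf3, a transcription factor induced in axotomised neurons, had 180, 268 and 224 CPM in knockout SNI libraries and 149, 152 and 151 CPM in control SNI libraries, against 4.18 to 7.24 CPM in knockout naive and 5.47 to 9.05 CPM in control naive libraries. Defining markers of sensory neurons were present throughout, with 14 markers together at 16700 to 17300 CPM in knockout SNI, 14700 to 16300 in control SNI, 16700 to 17100 in knockout naive and 15300 to 17700 in control naive libraries.

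Levels of different genes can be compared only per length, here as CPM per kb of annotated exon, and are given as means over the 15 libraries with their SD. Among the ligands, the secreted semaphorin Sema3b was highest at 40.7 ± 9.03 CPM per kb, above the Robo ligand Slit1 at 20.1 ± 6.09, the membrane semaphorin Sema4f at 20.1 ± 7.94, and Sema7a, a lipid-anchored semaphorin that binds Plxnc1, at 17.2 ± 3.05. These means pool injured and naive libraries: in control naive ganglia alone Sema3b stood at 42.5 CPM per kb, Sema7a and Slit1 at 18.6 each and Sema4f at 14.8. With the length of the longest transcript in place of all exons, Sema6d, a membrane semaphorin, passed Slit1 and Sema7a, at 21.5 against 21 and 17.2 CPM per kb. Efna1 led the ephrins at 14.8 ± 2.48 CPM per kb and Efna4 was their lowest at 0.373 ± 0.195. The netrins were low, between 3.16 ± 0.763 CPM per kb for Ntn4 and 0.849 ± 0.234 for Ntn5. Exons of genes on the opposite strand cover 23.4% of those of Ntn5, 14.1% of those of Efna3 and 10.5% of those of Efna4.

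Among the receptors, Plxnc1 was highest at 39.0 ± 5.86 CPM per kb, and the lowest plexin, Plxnb1, still stood at 4.22 ± 0.746. Of the neuropilins, Nrp1 stood at 9.25 ± 0.826 and Nrp2 at 5.61 ± 1.49 CPM per kb. The Eph receptors were lower, with a median over the 14 genes of 0.914 CPM per kb, and their leading member was the kinase-inactive Ephb6 at 12.8 ± 2.48. Robo2 (10.5 ± 1.59 CPM per kb) exceeded Robo4, known as the endothelial Robo, at 0.91 ± 0.249. Dcc, the attractive netrin receptor, was the lowest gene of all at 0.0703 ± 0.0295, below the 4 repulsive Unc5 receptors, of which Unc5a stood at 1.96 ± 0.637. With the length of the longest transcript in place of all exons, Unc5c and not Unc5a led that group, and the leading gene of the other 8 families stayed the same.

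**Figure D1:**
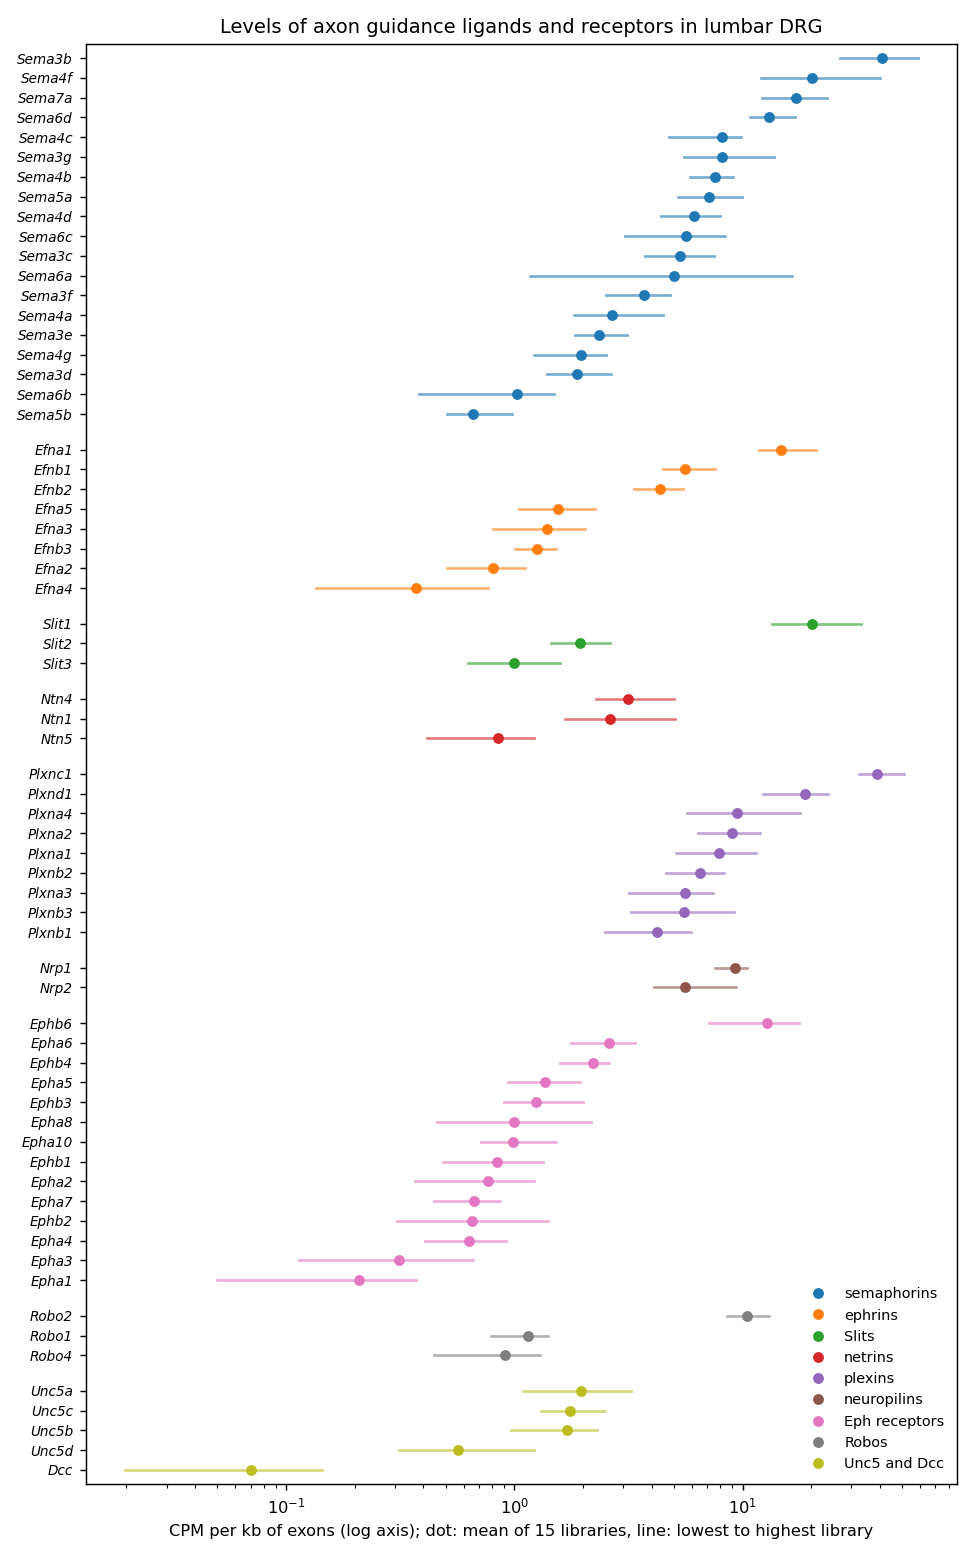
Levels of the 66 genes in CPM per kb of exons on a log axis, by family; dots are means of 15 libraries and lines run from the lowest to the highest library. Sema3b (40.7) and Plxnc1 (39.0) lead the ligands and receptors, and Dcc (0.0703) is the lowest; the line of Sema6a is long because its level depends on injury.

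The first comparison asks which guidance genes differ between knockout and control ganglia without injury. Receptors and not ligands passed the test: Epha8 and Unc5d rose in knockout ganglia and Robo2 fell. A gene is termed called where edgeR's quasi-likelihood test on all 15 libraries gave a p under 0.05 after Benjamini-Hochberg adjustment across the 16976 genes tested. The 3 calls are 4.55% of the 66 genes, against 1.89% of all tested genes, of which 0.889% were called higher and 1.0% lower. The median log2 fold change was -0.06 over the 66 genes and 0 over all tested genes.

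Epha8 (chr4:136929419-136956816, minus strand), an EphA receptor, had 7.62, 6.15, 10.2 and 6.53 CPM in knockout naive libraries, against 3.35, 3.68, 2.89, 2.64 and 2.49 CPM in control naive libraries. Every knockout library was above every control library. The log2 fold change was 1.35 ± 0.202 (SE), a 2.55-fold higher level, with an edgeR adjusted p of 0.00145, and the call held in each of 15 fits that left out a library, at an adjusted p of at most 0.00762. In injured animals Epha8 had 5.94, 3.69 and 5.40 CPM in knockout SNI libraries and 3.65, 3.82 and 2.16 CPM in control SNI libraries, where the groups overlap and the difference of 0.58 ± 0.263 on the log2 scale was not called.

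Unc5d (chr8:28646717-29219636, minus strand), an Unc5 receptor that also binds FLRT proteins, had 6.61, 9.52, 7.51 and 5.49 CPM in knockout naive libraries and 3.35, 2.99, 2.89, 3.74 and 3.69 CPM in control naive libraries. The groups do not overlap, and the log2 fold change was 1.13 ± 0.266 (edgeR adjusted p = 0.036). After injury the knockout libraries spread widely, at 11.2, 3.98 and 5.30 CPM, against 3.23, 2.99 and 5.61 CPM in control SNI libraries.

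Robo2, the main Robo of these ganglia, had 148, 145, 150 and 146 CPM in knockout naive libraries, against 191, 211, 184, 222 and 190 CPM in control naive libraries. The knockout libraries lie close together and below every control library, with a log2 fold change of -0.44 ± 0.0979 (edgeR adjusted p = 0.0275). Robo2 holds the miR-183 match shown above, and its level was lower in the knockout, not higher. In injured animals it had 195, 175 and 156 CPM in knockout SNI libraries and 218, 155 and 187 CPM in control SNI libraries, which overlap. Its call ended when any of knockout naive 4, 5, 8 or 9 or control naive 1, 2, 6 or 7 was left out (adjusted p up to 0.11), and that of Unc5d with any of the same libraries or control naive 3 (up to 0.158).

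The next smallest p-values belonged to ligands that were not called. Efna1, the leading ephrin, had 30.9, 27.8, 27.9 and 38.3 CPM in knockout naive libraries and 23, 21.6, 22.1, 24.7 and 23.6 CPM in control naive libraries, a log2 difference of 0.44 ± 0.113 (edgeR adjusted p = 0.0598). Sema3e, a secreted semaphorin that binds Plxnd1 without a neuropilin, had 20.4, 18.3, 20.2 and 17.9 CPM in knockout naive libraries and 22.0, 24.6, 29.0, 25.0 and 26.2 CPM in control naive libraries, a log2 difference of -0.40 ± 0.105 (edgeR adjusted p = 0.0662). The groups do not overlap for either gene, and either passed the threshold with DESeq2 or without control SNI 23.

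**Figure D2:**
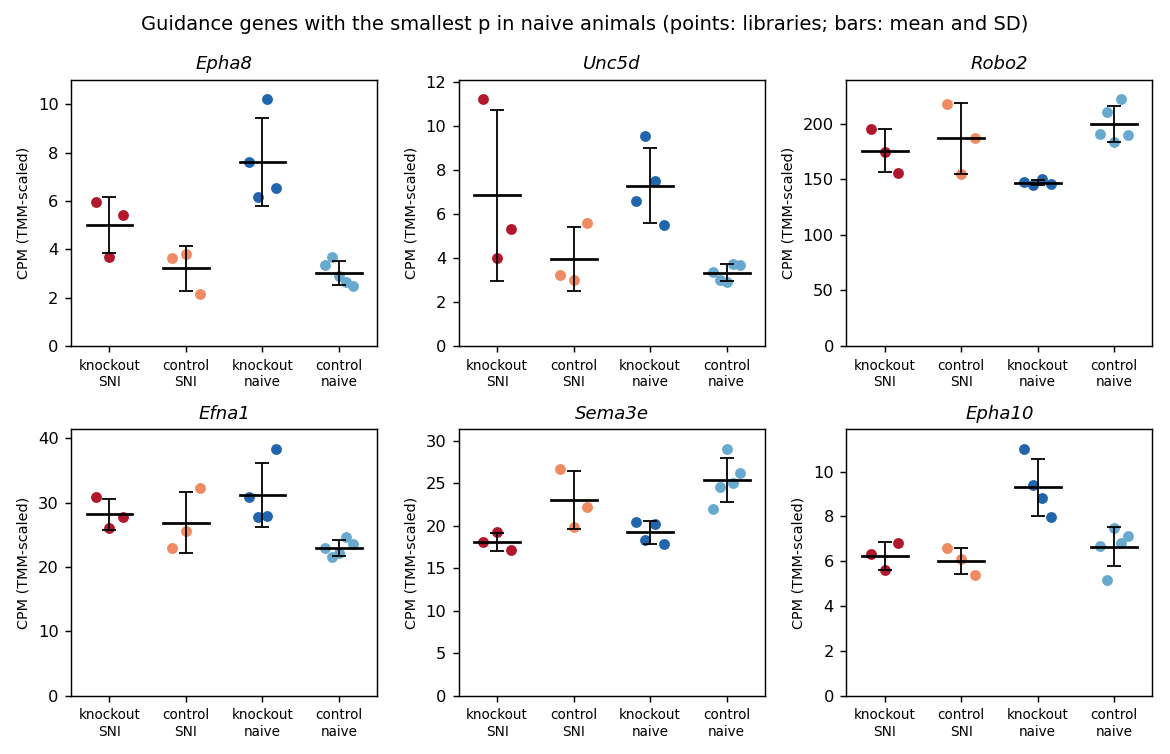
CPM by library of the 6 guidance genes with the smallest p in naive animals, in the order knockout SNI, control SNI, knockout naive and control naive; points are libraries, black bars the mean and SD. Epha8 and Unc5d lie higher, and Robo2 lower, in every knockout naive library than in every control naive library; Epha10 is lower in knockout SNI than in knockout naive libraries.

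Families moved little in naive animals. The 3 Slits had log2 fold changes between -0.46 and -0.29 and the 2 neuropilins -0.14 and -0.13, all below 0, but no member was called. The 19 semaphorins ran from -0.48 (Sema3g) to 0.24 (Sema3c) and the 9 plexins from -0.33 (Plxnc1) to 0.30 (Plxna3). Of the ephrins, 3 of 8 were above 0, and of the Eph receptors 7 of 14.

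Genes with a seed match went either way between genotypes, and no test of them as a group was made. Of the 11, 4 were above 0 in naive animals, with a median log2 fold change of -0.12, against 18 of the 55 without a match and a median of -0.06. In injured animals 4 of the 11 were above 0, with a median of -0.09, against 46 of 55 and a median of 0.29. Robo2 was the only gene of the 11 that edgeR called between genotypes with all libraries, and it was lower. DESeq2 also called Sema3e lower in naive animals, beside 2.91% of the genes it tested. It called Ephb2 higher in injured animals, beside 7.55%.

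The next comparisons ask how injury changed the guidance genes in each genotype. In control ganglia 3 genes rose and none fell: Sema6a, Epha3 and Sema3c. They are 4.55% of the 66 genes, against 2.48% of all tested genes called and 2.12% called higher, and the median log2 fold change was -0.01 over the guidance genes and 0.02 over all tested genes. In knockout ganglia 14 genes were called, 13 higher and 1 lower, or 21.2% against 10.1% of all tested genes (7.17% called higher and 2.94% lower). There 53 of the 66 genes had a log2 fold change above 0, with a median of 0.27, against 8074 of the 16976 tested genes and a median of -0.02. All 3 genes called in controls were among the 14. In these whole ganglia, a change in the number of cells of a type and a change in RNA per cell cannot be told apart.

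Sema6a, a membrane semaphorin that binds Plxna2 and Plxna4, changed most. It had 83.8, 145 and 116 CPM in knockout SNI libraries, against 12.5, 13, 12.4 and 11.8 CPM in knockout naive libraries. In controls it had 80.5, 72.4 and 46.4 CPM in SNI libraries, against 15.1, 13.9, 14.5, 11.2 and 10.2 CPM in naive libraries. Every injured library was above every naive library. The log2 fold change with injury was 3.21 ± 0.198 in knockouts (9.23-fold, edgeR adjusted p = 3.21e-08) and 2.37 ± 0.183 in controls (5.16-fold, edgeR adjusted p = 7.23e-07).

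Epha3, an EphA receptor with a miR-96 match, rose about equally in either genotype. It had 3.92, 3.22 and 3.30 CPM in knockout SNI libraries, against 1.32, 0.991, 1.71 and 1.44 CPM in knockout naive libraries (log2 fold change 1.34 ± 0.225, edgeR adjusted p = 0.00133). Control SNI libraries had 5.74, 4.85 and 4.75 CPM, against 1.97, 1.61, 2.43, 2.00 and 1.57 CPM in control naive libraries (1.41 ± 0.198, edgeR adjusted p = 0.00042). The injured libraries lay above the naive ones in either genotype, and the knockout SNI libraries lay below the control SNI libraries, a difference of -0.57 ± 0.216 that was not called (edgeR adjusted p = 0.152).

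Sema3c (chr5:17574281-17730268, plus strand), a secreted semaphorin that signals through neuropilins and plexins, was the third gene called in either genotype. It had 52.3, 44.6 and 53.7 CPM in knockout SNI libraries, against 34.3, 42.4, 35.1 and 26.8 CPM in knockout naive libraries. Control SNI libraries had 42.3, 46.9 and 45.7 CPM, and control naive libraries between 28.3 and 31.7 CPM. The log2 fold change was 0.53 ± 0.12 in knockouts (edgeR adjusted p = 0.0111) and 0.61 ± 0.116 in controls (edgeR adjusted p = 0.0064). The control call ended without the wt libraries, which leaves control SNI 15 as the sole injured control, and the knockout call without knockout SNI 21 (adjusted p = 0.0582).

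Of the other ligands, 5 were called in knockout ganglia and not in control ganglia. Sema4f (chr6:82911885-82939769, minus strand), a membrane semaphorin, had 145, 212 and 159 CPM in knockout SNI libraries, against 83.7, 82.3, 71.8 and 93.0 CPM in knockout naive libraries. Control SNI libraries had 149, 120 and 86.1 CPM, of which the lowest lay within the control naive range of 63.5 to 89.2 CPM. The log2 fold change was 1.06 ± 0.166 in knockouts (edgeR adjusted p = 0.000747) and 0.61 ± 0.159 in controls (edgeR adjusted p = 0.055).

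Slit1 (chr19:41600257-41743665, minus strand), the leading Slit, had 149, 196 and 161 CPM in knockout SNI libraries, against 90.1, 91.9, 79.2 and 100 CPM in knockout naive libraries. The groups do not overlap, and the log2 fold change was 0.90 ± 0.194 (edgeR adjusted p = 0.00908), which ended as a call without knockout SNI 19 (adjusted p = 0.0618). Control SNI libraries had 172, 102 and 95.2 CPM, and control naive libraries 105, 120, 89.3, 144 and 93.0 CPM, which overlap.

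Ntn1 (chr11:68209364-68400823, minus strand), the ligand of Dcc and the Unc5 receptors, had 21.9, 22.1 and 26.6 CPM in knockout SNI libraries, against 12.8, 12.1, 10.5 and 11.2 CPM in knockout naive libraries (log2 fold change 1.01 ± 0.266, edgeR adjusted p = 0.0265). In controls a single library decided the level: the SNI libraries had 13, 31.9 and 10.6 CPM, of which only control SNI 18 lay above the naive range of 12.7 to 18.4 CPM. The Ntn1 call in knockouts ended in 4 of the 15 fits that left out a library (adjusted p up to 0.104).

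The remaining ligands called in knockout ganglia were Sema3g and Sema4a. Sema3g, a secreted semaphorin known from vessels, had 32.5, 62.4 and 44.5 CPM in knockout SNI libraries, against 25.2 to 29.7 CPM in knockout naive libraries (0.76 ± 0.19, edgeR adjusted p = 0.0192). Control SNI libraries had 26.1 to 43.9 CPM and control naive libraries 34.0 to 45.4 CPM, so that every knockout naive library lay below every control naive library. The membrane semaphorin Sema4a had 17.2, 24.1 and 17.1 CPM in knockout SNI libraries, against 12.4 to 15.3 CPM in knockout naive libraries (0.53 ± 0.158, edgeR adjusted p = 0.0438). It had 12.5 to 15.1 CPM in control SNI and 9.85 to 15.5 CPM in control naive libraries. Without knockout SNI 19 the adjusted p was 0.163 for Sema3g and 0.274 for Sema4a. The Sema3g call ended in 2 of the 15 fits that left out a library, and that of Sema4a in 6 and with no filter on low counts. Ntn4, a laminin-binding netrin, was not called in either genotype (0.39 ± 0.174 in knockouts and 0.55 ± 0.168 in controls).

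Among the receptors, Plxna4 (chr6:32144268-32588192, minus strand), a plexin that serves class 3 semaphorins with a neuropilin and binds Sema6a directly, had 205, 253 and 166 CPM in knockout SNI libraries. Knockout naive libraries had 112, 109, 80.4 and 87.8 CPM, all lower (log2 fold change 1.10 ± 0.176, edgeR adjusted p = 0.000925). Control SNI libraries had 182.9, 150.7 and 108.1 CPM, and control naive libraries 116, 117, 95.0, 125 and 94.6 CPM. Of the injured controls, SNI 15 and SNI 18 lay above every control naive library and SNI 23 within their range (0.43 ± 0.168, edgeR adjusted p = 0.223), and control SNI 15 also lay above knockout SNI 21. Nrp2, the neuropilin partner for Sema3c and Sema3g, had 79.4, 110 and 75.7 CPM in knockout SNI libraries, against 50.2 to 59.6 CPM in knockout naive libraries (0.71 ± 0.178, edgeR adjusted p = 0.0204). Its call ended without knockout naive 8 or knockout SNI 19 (adjusted p up to 0.15). In controls Nrp2 had 89.1, 78.8 and 48.6 CPM in SNI libraries, against 49.0 to 69.5 CPM in control naive libraries, while Nrp1 was not called in knockouts (0.19 ± 0.0892).

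Ephb2, a receptor for B ephrins with a miR-96 match, had 15.2, 17.8 and 14.5 CPM in knockout SNI libraries, against 7.93, 6.05, 5.61 and 6.92 CPM in knockout naive libraries. The log2 fold change was 1.26 ± 0.22 (edgeR adjusted p = 0.00183). In controls the SNI libraries had 10.2, 8.98 and 3.88 CPM, of which the last is below every naive library (4.43 to 6.83 CPM). Plxna1 (0.56 ± 0.173, edgeR adjusted p = 0.0498) and Unc5c (0.43 ± 0.121, edgeR adjusted p = 0.0349) completed the receptors that rose. The Plxna1 call ended in 11 of the 15 fits that left out a library (adjusted p up to 0.212) and with no filter on low counts, and that of Unc5c in 4 of the 15 (up to 0.218). Exons of a gene on the opposite strand cover 10.7% of those of Plxna1.

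Epha10, a kinase-inactive Eph receptor, was the gene that fell, with 6.32, 5.59 and 6.80 CPM in knockout SNI libraries, against 11.0, 9.42, 8.84 and 7.97 CPM in knockout naive libraries (log2 fold change -0.58 ± 0.157, edgeR adjusted p = 0.0279). The call ended in 6 of the 15 fits that left out a library (adjusted p up to 0.148) and with no filter on low counts. Controls had 5.39 to 6.57 CPM in SNI libraries and 5.17 to 7.47 CPM in naive libraries. Thus the knockout naive libraries were the high ones among the 4 groups, with a naive knockout to control difference of 0.48 that was not called (edgeR adjusted p = 0.0853).

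**Figure D3:**
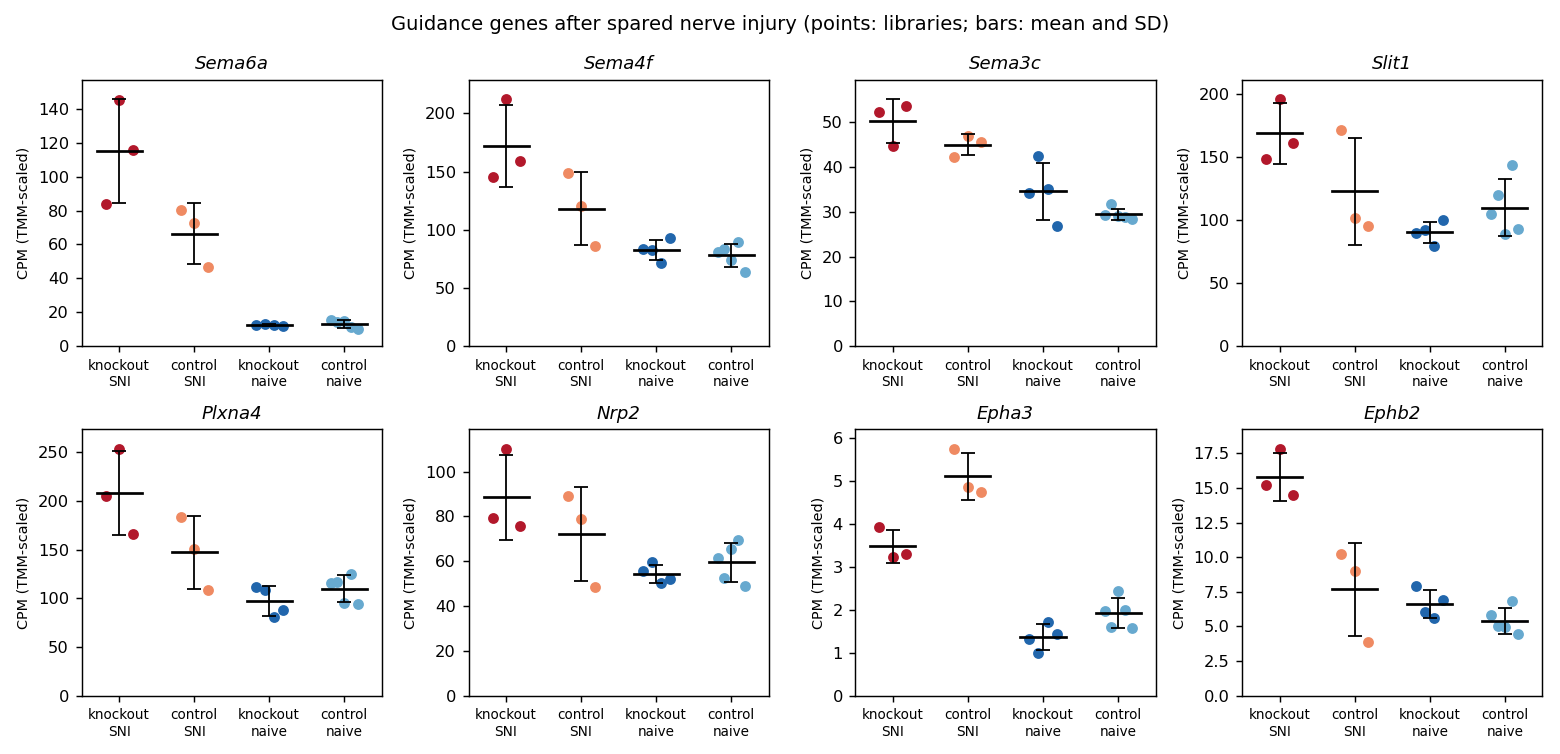
CPM by library of 8 guidance genes called after injury in knockout ganglia, in the order knockout SNI, control SNI, knockout naive and control naive; points are libraries, black bars the mean and SD. Every knockout SNI library lies above every knockout naive library in each panel, while control SNI 23 (the rightmost of the 3 points) lies within or below the control naive libraries for Sema4f, Slit1, Plxna4, Nrp2 and Ephb2.

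Leaving out 1 library moved these counts. Calls in knockout ganglia numbered 6 without knockout SNI 19, beside 3.41% of all tested genes, and 8 without knockout SNI 21, beside 4.66%. They numbered 9 without knockout naive 8, beside 5.14% of all tested genes, and 22 without control SNI 23, beside 25.6%. The calls over all genes thus moved with those of the guidance genes. The 6 calls without knockout SNI 19 were Sema6a, Epha3, Sema4f, Plxna4, Ephb2 and Sema3c. In control ganglia 7 genes were called without control SNI 23, where Sema4f, Ephb2, Ntn4 and Plxna4 joined, beside 4.63% of all tested genes. Without control SNI 15, 5 were called, 4 higher and 1 lower, beside 8.74% of all tested genes. Ntn4 joined as higher there and Plxnd1 as lower. Control SNI 23 was the lowest of the 3 injured controls for 50 of the 66 genes and for 12 of the 13 that rose in knockouts, and control SNI 15 was the highest for 45. Control SNI 23 is also the shallowest library and the one with the most mitochondrial counts. Control SNI 15 is the only injured control with Wnt1-Cre, and the other injured controls are wt. The Cre allele therefore cannot be told apart from other differences between these libraries. The part of these properties in the result was not tested.

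The calls with injury in knockouts are given here by family, beside 10.1% of all tested genes. Among the ligands they took 5 of 19 semaphorins, 1 of 3 Slits, 1 of 3 netrins and 0 of 8 ephrins. Among the receptors they took 2 of 9 plexins, 1 of 2 neuropilins, 3 of 14 Eph receptors, 0 of 3 Robos and 1 of 5 Unc5 and Dcc genes. Most families are too small for such counts to show a difference between them. All 9 plexins had log2 fold changes above 0 in knockouts, between 0.12 and 1.10, against 4 of 9 in controls, between -0.22 and 0.43. The ephrins ran from -0.53 (Efna3) to 0.68 (Efna4) in knockouts. No test was made of differences between families.

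**Figure D4:**
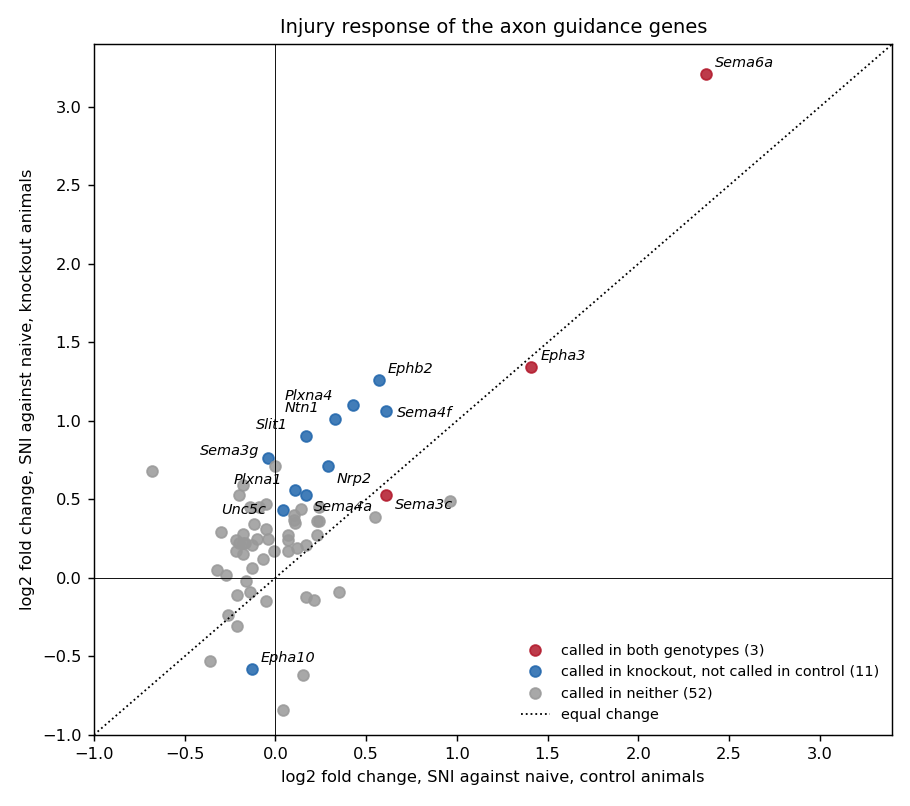
Log2 fold change of SNI against naive for the 66 genes in knockout animals (vertical) and control animals (horizontal); no library enters both axes, the dotted line marks equal change, and colour gives the calls. Sema6a, Epha3 and Sema3c are called in either genotype, 11 genes in knockouts and not in controls, and 52 in neither; most genes lie above the dotted line.

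The direct test of the difference in injury effect, knockout minus control, called no guidance gene and 0% of all tested genes. An unadjusted p under 0.05 was found for 12 of the 66 genes, or 18.2%, against 13.4% of all tested genes, and DESeq2 called none of the 66. The median difference was 0.30 on the log2 scale over the 66 genes and 0 over all tested genes, and 53 of the 66 were above 0. Smallest in p were Sema6a (0.84 ± 0.27), Sema3g (0.80 ± 0.265), Sema3b (0.74 ± 0.252), Epha6 (0.59 ± 0.211) and Slit1 (0.74 ± 0.271), all with an edgeR adjusted p of 0.365. The 11 genes called with injury in knockouts and not in controls are therefore not shown to respond differently. Without control SNI 15, 7 genes were called for this difference (Slit1, Plxnd1, Plxnb1, Plxna2, Sema6a, Plxna4 and Robo2), beside 7.17% of all tested genes.

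Between injured knockouts and injured controls no guidance gene was called by edgeR, against 1.04% of all tested genes. An unadjusted p under 0.05 was found for 21 of the 66, or 31.8%, against 22.7% of all tested genes, and DESeq2 called Ephb2, Sema6a and Ephb6 among the 50 it gave an adjusted p, beside 7.55% of the 12471 genes it tested. The median log2 fold change was 0.25 over the 66 genes, of which 50 were above 0, and -0.01 over all tested genes. Ephb2 had 15.2, 17.8 and 14.5 CPM in knockout SNI libraries and 10.2, 8.98 and 3.88 CPM in control SNI libraries (log2 difference 0.98 ± 0.239, edgeR adjusted p = 0.0625). Sema6a had a log2 difference of 0.78 ± 0.197 (edgeR adjusted p = 0.0703), and its lowest knockout library, at 83.8 CPM, was close to its highest control library, at 80.5 CPM.

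The other genes with small p were Ephb6, Sema4f and Epha6. Ephb6 had 53.6, 62.2 and 66.4 CPM in knockout SNI libraries and 55.0, 43.7 and 27.0 CPM in control SNI libraries (0.52 ± 0.169, edgeR adjusted p = 0.125), so that control SNI 15 lay among the knockouts. Epha6, an EphA receptor, had 17.9, 16.0 and 14.3 CPM in knockout SNI libraries and 9.39, 13.2 and 11.9 CPM in control SNI libraries, which do not overlap (0.49 ± 0.164, edgeR adjusted p = 0.131). Sema4f had a log2 difference of 0.54 ± 0.179 (edgeR adjusted p = 0.13).

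The result between injured genotypes moved with the injured libraries in the fit, both controls and knockouts. Without control SNI 15, 14 guidance genes were called, 13 higher and 1 lower, beside 20.6% of all tested genes, with a median of 0.38. Without control SNI 23 none was called and the median was 0.12, with 40 of 66 above 0. Without knockout SNI 19 none was called, beside 0.331% of all tested genes, and the median was 0.13, with 48 of 65 above 0. Without knockout SNI 21 none was called, beside 0.366%, and the median was 0.21, with 44 of 65 above 0. With control SNI 15 as the only injured control, after the wt libraries were left out, the median was 0.02 and 34 of 66 were above 0. Control SNI 15 is the only injured control with Wnt1-Cre, which all knockouts carry, so its Cre allele cannot be told apart from its other traits. The 8 injured-neuron markers summed to 1260 to 1860 CPM in knockout SNI libraries and 922 to 1110 CPM in control SNI libraries. Among the injured controls the marker sum was lowest in SNI 15, at 922 CPM, against 1110 CPM in SNI 18 and in SNI 23. The guidance genes were mostly highest in SNI 15. The sum of the 8 markers was also higher in every knockout naive library, at 392 to 420 CPM, than in every control naive library, at 226 to 287 CPM. Most of the markers did not follow that sum in naive animals. Only 3 of the 8 had a log2 fold change above 0 there, with a median of -0.21. A single marker was called higher, or 12.5% against 0.889% of all tested genes. The part of these markers in the result between injured genotypes was not tested.

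**Figure D5:**
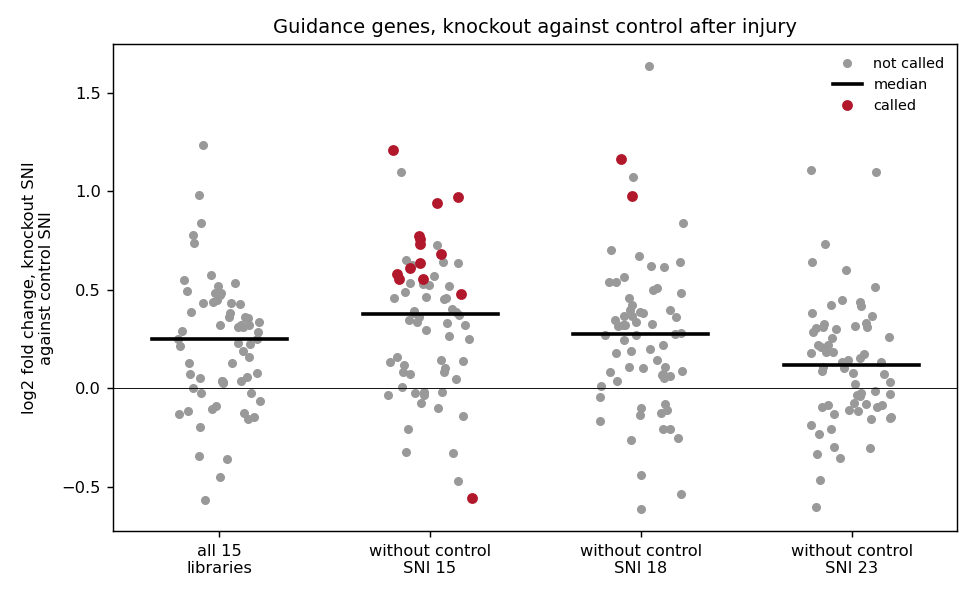
Log2 fold change of the 66 guidance genes between knockout SNI and control SNI with all 15 libraries and with each injured control left out; points are genes (red where called) and black lines are medians. The medians are 0.25, 0.38, 0.27 and 0.12 from left to right, and calls number 0, 14, 2 and 0.

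Markers of other cells moved unevenly with injury. Of 11 macrophage markers, 5 were called higher in knockouts, or 45.5% against 7.17% of all tested genes. In controls 7 were called higher, or 63.6% against 2.12%. They summed to 387 to 496 CPM in knockout SNI, 302 to 577 in control SNI, 284 to 415 in knockout naive and 230 to 294 in control naive libraries. In knockouts 7.17% of all tested genes were called higher and 2.94% lower. Of the muscle markers 1 of 7 (14.3%) was called higher there, and of the endothelial markers 2 of 8 (25.0%) were called higher and 1 (12.5%) lower. Of 8 satellite glia markers 1 (12.5%) was called higher, and of 14 sensory neuron markers 1 higher and 1 lower (7.14% each). None of these was called in controls, and no myelinating Schwann cell marker was called in either genotype. The 7 skeletal muscle markers summed to 144 to 1130 CPM in knockout SNI libraries, against 7.09 to 316 in control SNI, 17.8 to 178 in knockout naive and 4.65 to 94.0 in control naive libraries. The 8 endothelial markers summed to 112 to 141 CPM in knockout SNI, 104 to 132 in control SNI, 98.2 to 116 in knockout naive and 99.7 to 112 in control naive libraries. The 8 markers of myelinating Schwann cells summed to 4770 to 9460 CPM in knockout SNI, 5860 to 6590 in control SNI, 8160 to 9540 in knockout naive and 7410 to 11500 in control naive libraries, so that every control SNI library lay below every control naive library. Control SNI 23 had the highest sums of all 15 libraries for the 7 fibroblast markers (2350 CPM), the 8 satellite glia markers (4160 CPM) and the 11 macrophage markers (577 CPM), and the part of this in the control results was not tested. The 5 adipocyte markers summed to 188 CPM in knockout SNI 19 and to at most 50.6 CPM elsewhere. Which cells carry the guidance genes was not tested.

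Genes that act beside the 66 were taken from 2 lists. Of 40 tested co-receptors and other cue genes, 12 were called with injury in knockouts (11 higher, 1 lower), or 30.0% against 10.1% of all tested genes. In controls 7 were called (all higher), or 17.5% against 2.48%, and 1 was called between naive genotypes, or 2.5% against 1.89%. Flrt3, an Unc5 and Robo1 binding protein, rose to 89.5 CPM in knockout SNI ganglia, against 14.6 CPM in knockout naive ganglia (means; log2 fold change 2.62 ± 0.162, edgeR adjusted p = 2.82e-08). In controls it averaged 79.8 CPM after injury and 16.4 CPM in naive ganglia (2.29 ± 0.15, edgeR adjusted p = 8.92e-08). Draxin, a netrin and Dcc binding repellent, averaged 16.7 CPM in knockout SNI and 1.53 CPM in knockout naive ganglia (3.43 ± 0.263), and 10.2 CPM in control SNI and 2.75 CPM in control naive ganglia (1.91 ± 0.236). Chl1, an adhesion protein of the L1 family that associates with neuropilins, rose by 1.40 ± 0.134 in knockouts and 1.25 ± 0.126 in controls. Ptprd, a receptor phosphatase, was the gene called between naive genotypes, at a mean of 27.1 CPM in knockouts and 37.6 CPM in controls (-0.47 ± 0.101, edgeR adjusted p = 0.0224), and Vegfa, a vascular growth factor that binds neuropilins, fell with injury in knockouts (-0.58 ± 0.12).

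Of 77 cytoplasmic effectors, which link the receptors to the actin and microtubule skeleton, 16 rose and none fell with injury in knockouts, or 20.8% against 7.17% of all tested genes called higher. In controls 3 rose, or 3.9% against 2.12%. Myo10, a motor of filopodia that carries netrin receptors, had a log2 fold change of 1.40 ± 0.166 in knockouts and 0.72 ± 0.159 in controls. Rnd1, a small GTPase that binds plexins, averaged 6.89 CPM in knockout SNI and 1.25 CPM in knockout naive ganglia (2.46 ± 0.306), and 4.69 CPM in control SNI and 1.76 CPM in control naive ganglia (1.42 ± 0.289). Enah, an actin regulator downstream of Robo and netrin receptors, rose by 0.82 ± 0.154 in knockouts, and Crmp1, a mediator of semaphorin signals to microtubules, by 0.61 ± 0.123. No effector was called between naive genotypes by edgeR, where 11 had an unadjusted p under 0.05, or 14.3% against 11.7% of all tested genes, and Cap1, an actin-binding protein, was called between injured genotypes (0.34 ± 0.077, edgeR adjusted p = 0.0402), 1.3% of the effectors against 1.04% of all tested genes.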

How the data were processed

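The deposited table holds whole-number read counts per gene for 15 libraries, made by the authors. Per the submitters' processing notes, the tools were TopHat2 2.0.4, SAMtools, Cufflinks, HTSeq 0.6.1 and DESeq2, on GRCm38. Libraries were made with a stranded mRNA kit, per the labels' protocols. Which annotation was counted, with what strand setting, and how reads with several matches were treated is not given in the sources used here, so counts of genes with overlapping exons are uncertain.

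Symbols, exons and 3′ UTRs came from GENCODE M21 (GRCm38), which named 37693 of the 39179 identifiers, and microRNA sequences from RefSeq (GRCm38.p6). From the counts, 16976 genes passed filterByExpr and were fitted with edgeR 4.0.16 (TMM, robust quasi-likelihood F test), as 4 group means over all 15 libraries. Tests are two-sided with Benjamini-Hochberg adjustment. Each SE is the absolute log2 fold change over the square root of F. CPM are TMM-scaled. The replicates are animals by their labels. The scripts were tested on simulated data. Alternatives were RLE factors, no filter, DESeq2 1.42.0, limma-voom 3.58.1, only the groups compared, no wt libraries, and each library left out in turn.

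Genes named are, in each comparison, every guidance gene called or, where fewer than 5 were called, the 5 with the smallest p, and the highest and lowest of each family. Further genes beside these were chosen after their values were seen. The members and lists were chosen with earlier results of these data known.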

Additional observations from a re-analysis of the deposited data

How the results depend on the processing

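No call of a named gene changed direction: of 709 values of 34 gene results under alternatives, 622 kept direction and side of the threshold, 58 lost the call, 29 gained it and 0 reversed. Epha8 in naive knockouts, Sema6a and Epha3 in either injury comparison, and Sema4f, Plxna4 and Ephb2 with injury in knockouts kept their calls under all alternatives. The number of guidance genes called was 3 between naive genotypes (beside 1.89% of all tested genes), 5 with DESeq2 (2.91%) or without the wt libraries (4.04%) and 9 with only the groups compared (6.18%). It was 14 with injury in knockouts (10.1%), and 25 with only the groups compared or without the wt libraries (27.0% in either). It was 0 between injured genotypes (1.04%), and 3 with DESeq2 (7.55%) and 1 with no filter on low counts (143 of 27310 genes). With 1 library left out in turn, 1 to 6 guidance genes were called between naive genotypes, beside 151 to 708 of all tested genes. With injury, 3 to 7 were called in controls, beside 283 to 1506, and 6 to 22 in knockouts, beside 587 to 4409. Between injured genotypes 0 to 14 were called, beside 57 to 3558. For the difference of injury effects 0 to 7 were called, beside 0 to 1235. These fits tested 16912 to 17235 genes, and the calls over all genes moved as well. Without the wt libraries the injured controls are a single library, assumed to vary like the other groups. The cause of these shifts was not tested. No paired analysis was possible because no replicate number is shared between groups. Levels under 10 CPM, as for Epha8, Epha3 and Unc5d, rest on few reads per library.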
